A study of Mus musculus with 32 samples.

Results

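The lymphoid priming genes described here were 31 genes that lymphoid-biased progenitors switch on ahead of commitment, or that work in lymphocyte development and signalling. They were listed by name under a rule that uses no measured value, but with earlier results of these data known. All 31 were found by symbol among the 41388 genes of each deposited expression table. The study profiled haematopoietic stem cells (HSC, sorted as Lin- cKit+ Sca1+ CD150+ CD48-) and multipotent progenitors (MPP, the same gate but CD150-) from mouse bone marrow by RNA-seq, in 24 libraries. In the first cohort, C57BL/6 mice at 8 weeks carried the Vav-Cre driver, which acts across the blood lineages from fetal life; controls were labelled wild type with the Vav driver, and the Jarid2-KO mice had lost Jarid2 through the same driver (HSC and MPP of each genotype, n = 3). In the second cohort, C57BL/6 mice at 10 weeks carried the inducible Mx1-Cre driver and were taken 2 months after pIpC, the agent that induces it in many tissues besides blood. By its labels that cohort held control, Jak2V617F (the activating kinase allele of myeloproliferative neoplasms) and Jak2V617F with Jarid2-KO, called the double mutant here, as HSC and MPP (n = 2 each). Every Mx1 group, the controls included, had received pIpC, and each library came from pooled mice of both sexes, so a library is a pool and not an animal.

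Jarid2 is a DNA-binding partner of Polycomb repressive complex 2, which places the repressive H3K27me3 mark. Stem cells carry low levels of transcripts that belong to later lineages, and as multipotent progenitors lose self-renewal a subset of them takes up a lymphoid programme: the template-free polymerase Dntt and the Rag recombinase for assembling antigen receptor genes, cytokine and chemokine receptors that guide cells to marrow and thymic niches, and nuclear factors such as Satb1 and Ikaros (Ikzf1) that open lymphoid loci. In bone marrow this priming is strongest in the Flt3-high part of the progenitor pool, which gives rise to common lymphoid progenitors.

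Libraries held 10473535 to 27232379 counted reads in the Vav cohort and 7852483 to 20724168 in the Mx1 cohort. In the Vav controls, the MPP markers Flt3, Cd34 and Cd48 were higher in MPP by edgeR's quasi-likelihood test with Benjamini-Hochberg adjustment. Cd48 encodes the antigen CD48, for which both gates given above were negative. By the same test 3 of 8 HSC markers (Slamf1, which encodes the sort antigen CD150, Vwf and Ctnnal1) were lower in MPP. The other 5 did not pass, and the 8 HSC markers together summed to more in MPP (1336 to 1612 CPM, reads scaled to a common library total) than in HSC (1173 to 1344 CPM), so this sum does not separate the sorted cell types. A single Vav library, the first of the Jarid2-KO MPP, stood apart, with 0.559% mitochondrial reads against 1.63% to 3.46% in the other Vav libraries and 14900 CPM summed over 8 granulocyte-monocyte markers. In the Mx1 cohort, 6 of 12 libraries drew over 4% of their reads from heart-muscle transcripts (4.94% to 7.53%, against 0.427% to 0.984% in the other 6 and at most 0.00232% in the Vav cohort). The HSC marker sum was 101 to 131 CPM in the libraries labelled Mx1 control HSC, 76.3 to 217 CPM in Jak2V617F HSC and 535 to 1186 CPM in double mutant HSC, and 111 to 260 CPM, 259 to 260 CPM and 526 to 636 CPM in the MPP of the same genotypes. The Mx1 control and Jak2V617F libraries of both cell types thus lay below every Vav control library on this sum. The Mx1 results below are therefore given as values of labelled libraries, with the fits that take the heart transcripts into account beside them.

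Of the members, 4 were lower together in Jarid2-KO progenitors (values below), and 3 of them, Dntt, Satb1 and Il12a, are shown first by the 250 bases upstream of their first listed start (RefSeq, GRCm38.p6, 5′ to 3′ on the gene's strand). Capitals mark matches to any of 3 motifs that were searched on both strands: CACCTG or CAGGTG, the E box read by E proteins; TGTGGT or ACCACA, the Runx core; and TGGGAA or TTCCCA, the Ikaros core.
Dntt: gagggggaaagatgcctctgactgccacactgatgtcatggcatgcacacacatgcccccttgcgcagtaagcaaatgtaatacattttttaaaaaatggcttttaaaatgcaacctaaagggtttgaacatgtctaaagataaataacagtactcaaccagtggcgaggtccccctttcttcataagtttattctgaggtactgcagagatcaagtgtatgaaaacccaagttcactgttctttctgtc
Satb1: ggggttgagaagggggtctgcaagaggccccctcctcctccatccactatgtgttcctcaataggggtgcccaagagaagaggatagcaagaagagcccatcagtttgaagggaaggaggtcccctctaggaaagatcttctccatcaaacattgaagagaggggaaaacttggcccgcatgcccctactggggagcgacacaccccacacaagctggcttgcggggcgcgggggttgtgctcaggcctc
Il12a: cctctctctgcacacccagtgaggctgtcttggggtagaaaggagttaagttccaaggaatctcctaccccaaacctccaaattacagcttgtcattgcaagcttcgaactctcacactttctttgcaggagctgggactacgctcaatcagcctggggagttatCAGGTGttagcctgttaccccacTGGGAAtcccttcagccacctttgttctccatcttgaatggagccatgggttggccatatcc
The Dntt window (chr19:41029025-41029274, plus strand) and the Satb1 window (chr17:51833291-51833540, minus strand) held none of these letters. The Il12a window (chr3:68690394-68690643, plus strand) held 1 CAGGTG and 1 TGGGAA. Over 32851 promoter windows of the same length, 17.2% held the E box, 14.0% the Runx core and 21.6% the Ikaros core; among the 24 members with a RefSeq promoter the counts were 6, 4 and 4. The Dntt and Il12a windows were poor in CpG, with 2 each, and that of Satb1 had 5, against a median of 6 over all windows. Across the 24 members CpG ran from 1 (Mef2c, Il7r and Lck) to 44 (Ikzf1), with a median of 5.5. Satb1 has 5 starts listed and Il12a 2, so the window shown is that of 1 start. The fourth gene that was lower with them, Tespa1 (chr10:130322852-130362642, plus strand, mm10), is named only. The gene bodies of the others lie at chr19:41029275-41059523 (Dntt), chr17:51736187-51833290 (Satb1) and chr3:68690644-68698547 (Il12a).

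In control mice the 31 genes spanned a wide range of abundance. On the length-corrected RPKM scale, which allows genes to be compared, Vav control HSC carried most of Cd27, a co-receptor of the TNF receptor family (85.4 ± 9.25 RPKM, mean ± SD, n = 3), and of Mef2c, a MADS-box factor that favours lymphoid over myeloid fate (82.4 ± 7.01). Il12a, which encodes the alpha subunit of an interleukin that activates NK and T cells, followed at 36.7 ± 7.32, and Gata3, a factor of T cells and innate lymphocytes that stem cells also use, at 30.6 ± 1.04. In Vav control MPP, Cd27 was again highest at 132 ± 17.5 RPKM. There Mef2c stood at 77.0 ± 4.70 and Il12a at 67.5 ± 7.23. The mean of Ighm, the mu heavy chain gene, whose constant region can be transcribed before it is rearranged, rested on libraries that spread widely (103 ± 47.6 in MPP, 24.8 ± 17.2 in HSC).

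The 3 genes with the smallest p between control MPP and HSC, described below, were less abundant in MPP than Cd27, Mef2c and Il12a. Tespa1, an adaptor of T cell receptor signalling, had 30.2 ± 1.53 RPKM in control MPP and a mean of 3.21 in control HSC. Dntt had 22.1 ± 4.55 RPKM against 3.00. Satb1, a chromatin organiser that folds lymphoid loci, had 3.20 against 0.805 RPKM, low because the summed exon length that the table lists for it is 19027 bases. At the bottom of the range, the T and NK adhesion molecule Cd2 had 0 to 11 counts and the Ikaros relative Ikzf3 0 to 16 counts in any Vav library, and neither passed the filter on low counts. The remaining 29 members were tested in the Vav cohort, and all 31 in the Mx1 cohort.

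**Figure D1:**
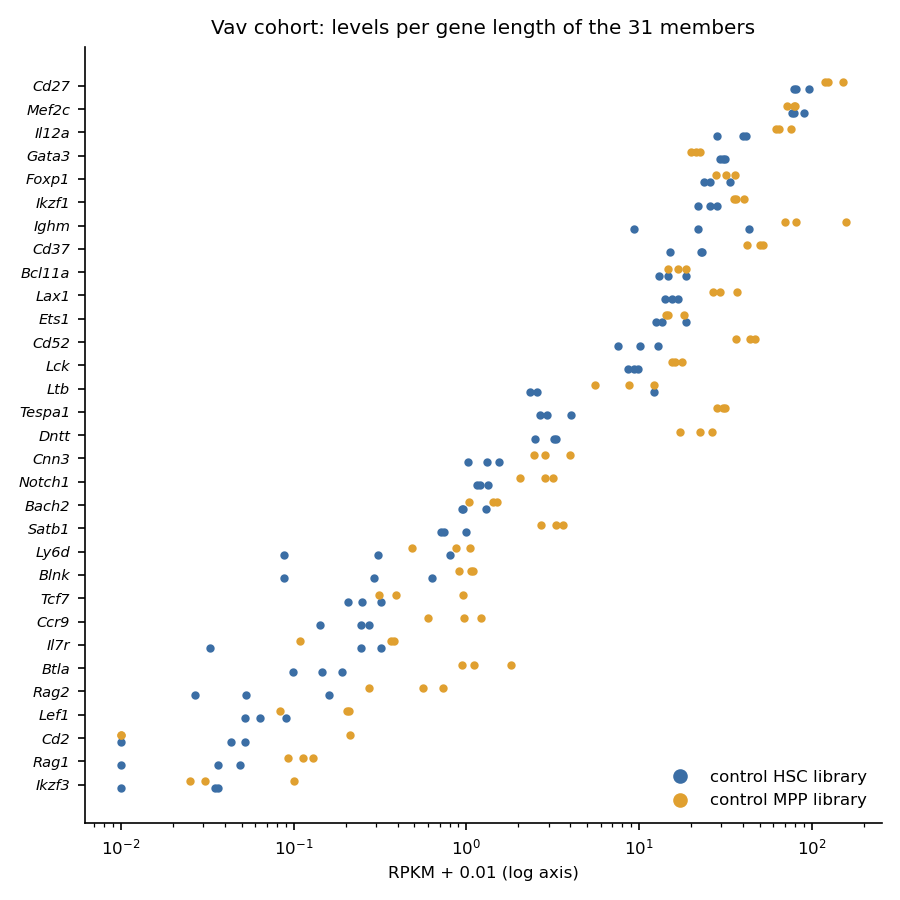
Level of each of the 31 genes in Vav control HSC (blue) and Vav control MPP (orange), as RPKM plus 0.01 on a logarithmic axis, with 1 point per library (n = 3 per group). Cd27 and Mef2c have the highest means in HSC and Cd27 and Ighm in MPP, Cd2, Ikzf3 and Rag1 sit near the bottom, and the orange points of Tespa1, Dntt and Satb1 lie apart from the blue ones.

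The first comparison asked how far the programme separates normal MPP from normal HSC. Of the 29 genes tested, 6 were higher in control MPP by edgeR's quasi-likelihood test (adjusted p under 0.05): Tespa1, Dntt, Satb1, Cd52, Cd37 and Lax1. None was lower. Over all 15818 genes tested, 0.512% were higher and 0.657% lower. The median log2 difference of the 29 was 1.03, against -0.02 over all genes; 27 were positive, and 20 had an unadjusted p under 0.05, as did 1335 of all genes. The 3 libraries of control MPP lay wholly above the 3 of control HSC for 18 members, against 10.7% of all genes, and wholly below for 1, Gata3, against 7.69% of all genes. In bulk RNA, fewer cells of a type and less RNA per cell cannot be told apart, so a higher level in MPP may count primed cells or transcripts per cell.

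Among genes of antigen receptor assembly, Dntt read 7.05, 5.29 and 6.83 CPM in the 3 control HSC libraries and 56.1, 47.9 and 36.8 CPM in control MPP. The groups did not overlap, and the log2 difference was 2.81 (SE 0.29, edgeR adjusted p = 0.0001843). The recombinase subunits Rag1 and Rag2 stayed below 3 CPM in every control library of the cohort, with log2 differences of 2.02 and 2.72 that did not pass the test. Ighm read 32.5, 13.9 and 64.3 CPM in HSC and 234, 104 and 121 CPM in MPP, a difference of 2.02 (SE 0.82) that missed the threshold, with an edgeR adjusted p of 0.4743. The median of the 4 genes in this role was 2.37.

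Tespa1 showed the steepest separation of the signalling genes. Its 3 control HSC libraries had 4.92, 4.54 and 6.87 CPM and its 3 control MPP libraries 53.3, 51.8 and 48.2 CPM, a log2 difference of 3.17 (SE 0.29, edgeR adjusted p = 9.291e-05). Lax1, a transmembrane adaptor that dampens lymphocyte receptor signals, had 36.1, 32.6 and 39.0 CPM in HSC and 85.4, 62.3 and 67.6 CPM in MPP, 0.94 higher (SE 0.19, edgeR adjusted p = 0.0282). That call was lost when any 1 of the 6 libraries was left out and in 8 of 14 alternative settings in all. With 1 of the 6 left out, 0.376% to 0.623% of all genes were called, against 1.17% with all libraries. Lck, the Src-family kinase of T cells, lay at 25.3 to 28.8 CPM in HSC and 45.5 to 52.3 CPM in MPP without overlap, but its difference of 0.77 (SE 0.20) did not pass, with an edgeR adjusted p of 0.1092. Blnk, the B cell receptor adaptor, was below 7 CPM throughout.

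Of the nuclear factors, Satb1 alone passed. It had 14.0, 18.7 and 13.3 CPM in control HSC and 68.8, 62.5 and 51.2 CPM in control MPP, a log2 difference of 1.91 (SE 0.28, edgeR adjusted p = 0.003177). The other 9 factors tested, among them the abundant Mef2c, Foxp1, Ikzf1, Bcl11a and Ets1, did not pass, and the median of the 10 was 0.20. Ikzf1 read 127 to 163 CPM in HSC and 206 to 235 CPM in MPP, with a difference of 0.52 (SE 0.16, edgeR adjusted p = 0.1766). Gata3 went the other way, at 122, 126 and 118 CPM in HSC and 85.6, 79.2 and 89.7 CPM in MPP, a difference of -0.58 (SE 0.17) that did not pass either, with an edgeR adjusted p of 0.1617.

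In the surface group, 2 genes rose. Cd52, a small lipid-anchored glycopeptide of mature lymphocytes, had 15.4, 9.02 and 12.0 CPM in control HSC and 52.1, 55.9 and 43.0 CPM in control MPP (log2 difference 1.99, SE 0.38, edgeR adjusted p = 0.02056). Cd37, a tetraspanin of B cells, had 80.7, 53.8 and 81.7 CPM in HSC and 184, 178 and 149 CPM in MPP (1.19, SE 0.21, edgeR adjusted p = 0.01498). No cytokine, receptor or co-receptor gene passed, although the groups of Il12a did not overlap, at 57.0, 38.8 and 55.2 CPM in HSC and 104, 85.0 and 88.7 CPM in MPP (0.83, SE 0.21, edgeR adjusted p = 0.08154). Notch1, the receptor that commits progenitors to the T lineage, lay at 16.3 to 18.9 CPM in HSC and 28.9 to 44.9 CPM in MPP (1.06, SE 0.25, edgeR adjusted p = 0.05689). Cd52 exons overlap those of Crybg2 on the opposite strand over 172 bases, and those of Notch1 overlap an antisense transcript over 1068 bases; whether the counting used strand is not given in the sources used here, so reads of such pairs may be shared.

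**Figure D2:**
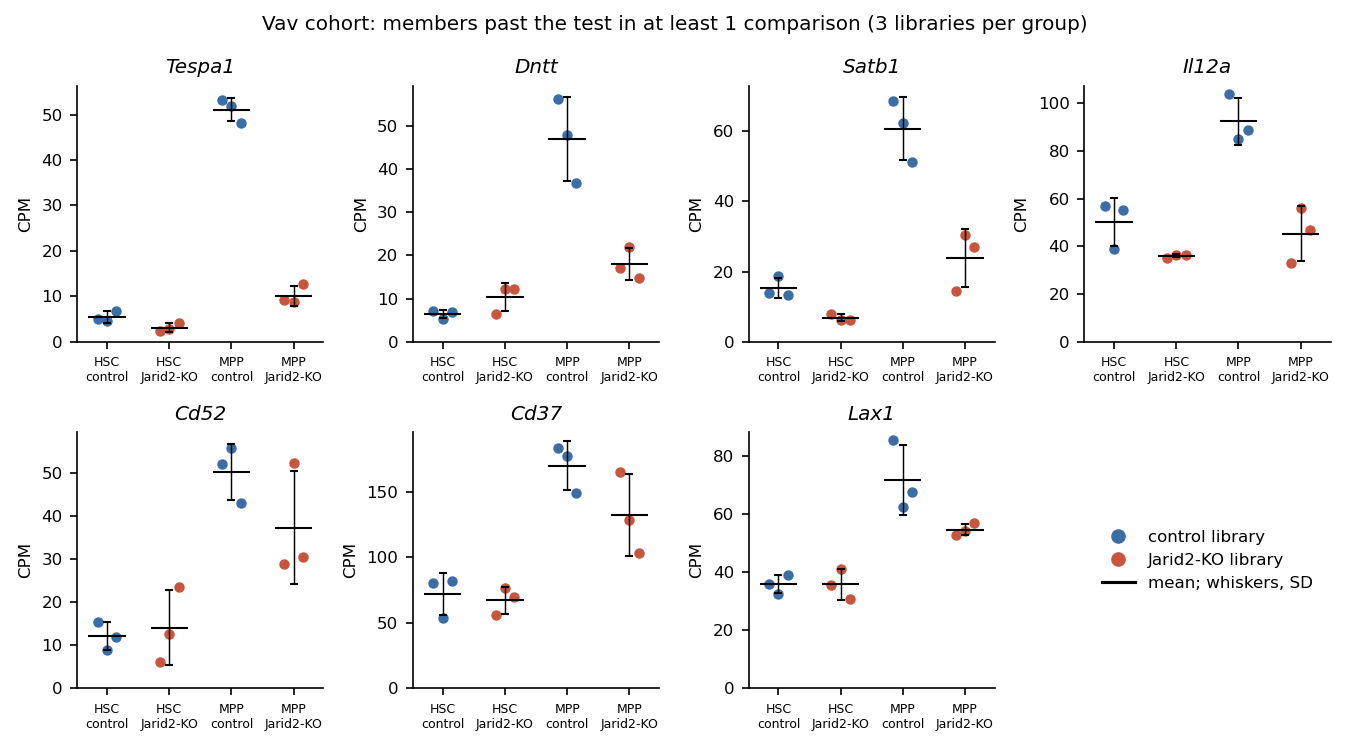
CPM of Tespa1, Dntt, Satb1, Il12a, Cd52, Cd37 and Lax1 in each of the 12 Vav libraries, by group (control in blue, Jarid2-KO in red; points are libraries, lines the mean of 3, whiskers 1 SD). For Tespa1, Dntt, Satb1 and Il12a the 3 control MPP libraries stand above all other libraries of the cohort, the Jarid2-KO MPP among them.

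The same step was then read in mice without Jarid2. In Jarid2-KO, 2 of the 29 genes were higher in MPP than in HSC, Satb1 and Tespa1, and none was lower, against 0.177% and 0.348% of all genes. The median log2 difference of the members was 0.51, against 0.05 over all genes, and 25 were positive. The 3 libraries of MPP lay wholly above those of HSC for 11 members and wholly below for 2, against 4.88% and 6.87% of all genes. Satb1 rose from 8.07, 6.27 and 6.28 CPM to 14.6, 30.3 and 26.9 CPM (log2 difference 1.80, SE 0.28, edgeR adjusted p = 0.009205). Tespa1 rose from 2.29, 2.88 and 4.22 CPM to 9.15, 8.69 and 12.7 CPM (1.72, SE 0.28, edgeR adjusted p = 0.01131). Dntt, which differed 2.81 on the log2 scale between control MPP and HSC, read 6.53, 12.2 and 12.3 CPM in Jarid2-KO HSC and 17.0, 22.1 and 14.8 CPM in Jarid2-KO MPP, a difference of 0.80 (SE 0.28) that did not pass, with an edgeR adjusted p of 0.2777. Leaving out the second Jarid2-KO HSC library removed both calls, with 0.218% of all genes called. Satb1 alone passed without the first Jarid2-KO HSC library (0.225%) and Tespa1 alone without the third (0.256%). Cd37 and Cnn3 also passed without the third Jarid2-KO MPP library (1.07%). With all libraries the share was 0.525%.

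The genotypes were then compared within each cell type. In MPP, 4 of 29 genes were lower in Jarid2-KO than in control, namely Tespa1, Dntt, Il12a and Satb1, and none was higher; over all genes, 0.436% were lower and 0.512% higher. For 10 members the unadjusted p was under 0.05, as it was for 3055 of the 15818 genes. The median log2 difference of the 29 was -0.24, against 0.02 over all genes, and 19 were negative. All 3 Jarid2-KO libraries lay below all 3 controls for 11 members (the 4 just named and Rag2, Mef2c, Ccr9, Cd27, Btla, Lax1 and Lck), against 12.6% of all genes, and above them for 2 (Rag1 and Lef1), against 9.07%. DESeq2 and limma-voom called the same 4 genes, with 7.17% and 2.91% of all genes they tested.

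Tespa1 stood at 53.3, 51.8 and 48.2 CPM in control MPP and at 9.15, 8.69 and 12.7 CPM in Jarid2-KO MPP, a log2 difference of -2.32 (SE 0.28, edgeR adjusted p = 0.001482). The Jarid2-KO MPP lay nearer to control HSC, at 4.54 to 6.87 CPM, than to control MPP. Dntt stood at 56.1, 47.9 and 36.8 CPM in control MPP and 17.0, 22.1 and 14.8 CPM in Jarid2-KO MPP (-1.38, SE 0.28, edgeR adjusted p = 0.03177). Its 2 groups were separated by a gap, with the lowest control above the highest Jarid2-KO library.

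Satb1 read 68.8, 62.5 and 51.2 CPM in control MPP and 14.6, 30.3 and 26.9 CPM in Jarid2-KO MPP (-1.34, SE 0.28, edgeR adjusted p = 0.03505). Il12a read 104, 85.0 and 88.7 CPM in control MPP and 33.0, 56.2 and 46.9 CPM in Jarid2-KO MPP (-1.03, SE 0.21, edgeR adjusted p = 0.03182). For both, the lowest Jarid2-KO value was that of the first library, the one with few mitochondrial reads. Without it the same 4 genes passed, with 0.935% of all genes. Their log2 differences were -2.27 for Tespa1, -1.36 for Dntt, -1.10 for Satb1 and -0.86 for Il12a (edgeR adjusted p = 0.001044, 0.04084, 0.04181 and 0.04262).

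Of the 4 calls, 3 were close to the threshold. Tespa1 alone passed when any 1 of the 3 control MPP libraries was left out, with 0.207% to 0.339% of all genes called. It alone passed when only the 2 MPP groups were fitted (edgeR adjusted p = 0.02376, 0.129% of all genes). The same held when the replicate number entered as a block (edgeR adjusted p = 0.003452, 0.67% of all genes). In the main fit 0.948% of all genes were called, so the calls fell over all genes as well. Without the third Jarid2-KO MPP library 6 passed, with Mef2c lower and Cnn3 higher beside the 4. The number of genes called in all then rose to 1512 (9.03%).

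Of the 6 genes called between control MPP and HSC, Cd52, Cd37 and Lax1 did not differ past the test between the MPP genotypes. Cd52 read 52.1, 55.9 and 43.0 CPM in control MPP and 28.9, 52.5 and 30.7 CPM in Jarid2-KO MPP, overlapping, with a difference of -0.43 (SE 0.37, edgeR adjusted p = 0.5534). Cd37 overlapped as well, at 149 to 184 CPM against 103 to 165 CPM. Lax1 did not overlap, at 62.3 to 85.4 CPM against 53.0 to 56.9 CPM, but its difference of -0.39 did not pass (edgeR adjusted p = 0.2835).

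Antigen receptor assembly genes other than Dntt did not pass between the MPP genotypes. Rag2 read 0.906 to 2.48 CPM in control and 0.0955 to 0.780 CPM in Jarid2-KO MPP (-1.95, SE 0.88, edgeR adjusted p = 0.2428). Its partner Rag1 read 0.546 to 0.794 CPM in control and 1.38 to 3.23 CPM in Jarid2-KO MPP (1.66, SE 0.74, edgeR adjusted p = 0.2384). The 2 genes, whose products form 1 enzyme and which lie next to each other on chromosome 2, thus had differences of opposite sign, neither past the test, and exons of Rag2 overlap an antisense gene over 208 bases. Ighm overlapped fully, at 104 to 234 CPM against 120 to 338 CPM.

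Of the cytokine and receptor genes other than Il12a, Ccr9, the chemokine receptor that takes progenitors to the thymus, read 2.78 to 5.71 CPM in control and 1.23 to 2.01 CPM in Jarid2-KO MPP (-1.44, SE 0.58, edgeR adjusted p = 0.2001). Cd27 read 277 to 353 CPM against 214 to 230 CPM (-0.46, edgeR adjusted p = 0.2835). Ltb, which encodes lymphotoxin beta, had a fitted difference of 1.89 that rested on 1 library: 130 CPM in the first Jarid2-KO MPP library, against 7.74 and 8.98 CPM in the others and 8.47 to 18.5 CPM in control MPP. Among nuclear factors the median was -0.12; Mef2c read 484 to 544 CPM against 224 to 438 CPM (-0.60, SE 0.22, edgeR adjusted p = 0.1718). Cnn3, an actin-binding calponin, read 4.94 to 7.94 CPM against 5.63 to 18.1 CPM (0.97, SE 0.39, edgeR adjusted p = 0.2003).

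Markers of MPP and of other cell types were read beside these genes in the MPP. The MPP marker Flt3 read 405 to 580 CPM in control and 133 to 276 CPM in Jarid2-KO MPP, without overlap. It did not pass the test there, nor did the MPP markers Cd34 and Cd48. Of 7 stroma and endothelium markers, 3 passed the test, Cxcl12 and Col4a1 higher and Pecam1 lower, with a list median of 1.98. The sums over the 7 were 156, 185 and 172 CPM in control and 483, 153 and 115 CPM in Jarid2-KO. Only the first Jarid2-KO library, the one with few mitochondrial reads, lay above the controls, and the others lay below all of them. Dendritic cell and macrophage markers, Flt3 again among them, summed to 926 to 1232 CPM in control and 455 to 598 CPM in Jarid2-KO. The Flt3 values just given are thus part of these sums. Cd74, H2-Aa and Cd68 were lower, 3 of 6 tested. Granulocyte-monocyte markers summed to 2628 to 3882 CPM and 4210 to 14900 CPM, with 0 of 8 past the test. Committed B cell markers summed to 77.7 to 99.7 CPM and 96.0 to 186 CPM (0 of 7), and T cell markers to 9.22 to 16.0 CPM and 3.45 to 7.46 CPM (0 of 2). Of the 8 T cell markers listed, 4 reached 10 counts in a control MPP library and 2 in a Jarid2-KO MPP library. The part of these shifts in the lower Tespa1, Dntt, Satb1 and Il12a was not tested.

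In HSC no member passed between genotypes, higher or lower, in edgeR, against 0.253% of all genes higher and 0.316% lower; 8 members and 2695 of all genes had an unadjusted p under 0.05. DESeq2 called 2, Satb1 and Tespa1, both lower, where it called 4.95% of all genes it tested, and limma-voom called Satb1, where it called 8.97%. The median of the 29 was -0.07, against -0.03 over all genes. Satb1 read 14.0, 18.7 and 13.3 CPM in control HSC and 8.07, 6.27 and 6.28 CPM in Jarid2-KO HSC, without overlap (-1.23, SE 0.28, edgeR adjusted p = 0.06877). Tespa1 read 4.54 to 6.87 CPM and 2.29 to 4.22 CPM (-0.87, SE 0.28, edgeR adjusted p = 0.167), and Il12a 38.8 to 57.0 CPM and 35.3 to 36.6 CPM (-0.54, SE 0.21, edgeR adjusted p = 0.2175). Dntt read 5.29 to 7.05 CPM and 6.53 to 12.3 CPM, a difference of 0.63 (SE 0.28, edgeR adjusted p = 0.2705), of the opposite sign to that in MPP. The 3 Jarid2-KO libraries lay below all controls for 5 members (Satb1, Mef2c, Bcl11a, Il12a and Tespa1), against 10.7% of all genes, and above for 3 (Lef1, Notch1 and Cnn3), against 16.2% of all genes. Dendritic cell and macrophage markers, Flt3 included, summed to 509 to 553 CPM in control and 203 to 306 CPM in Jarid2-KO HSC. Cd74 and H2-Aa were lower, and the part of these markers was not tested.

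**Figure D3:**
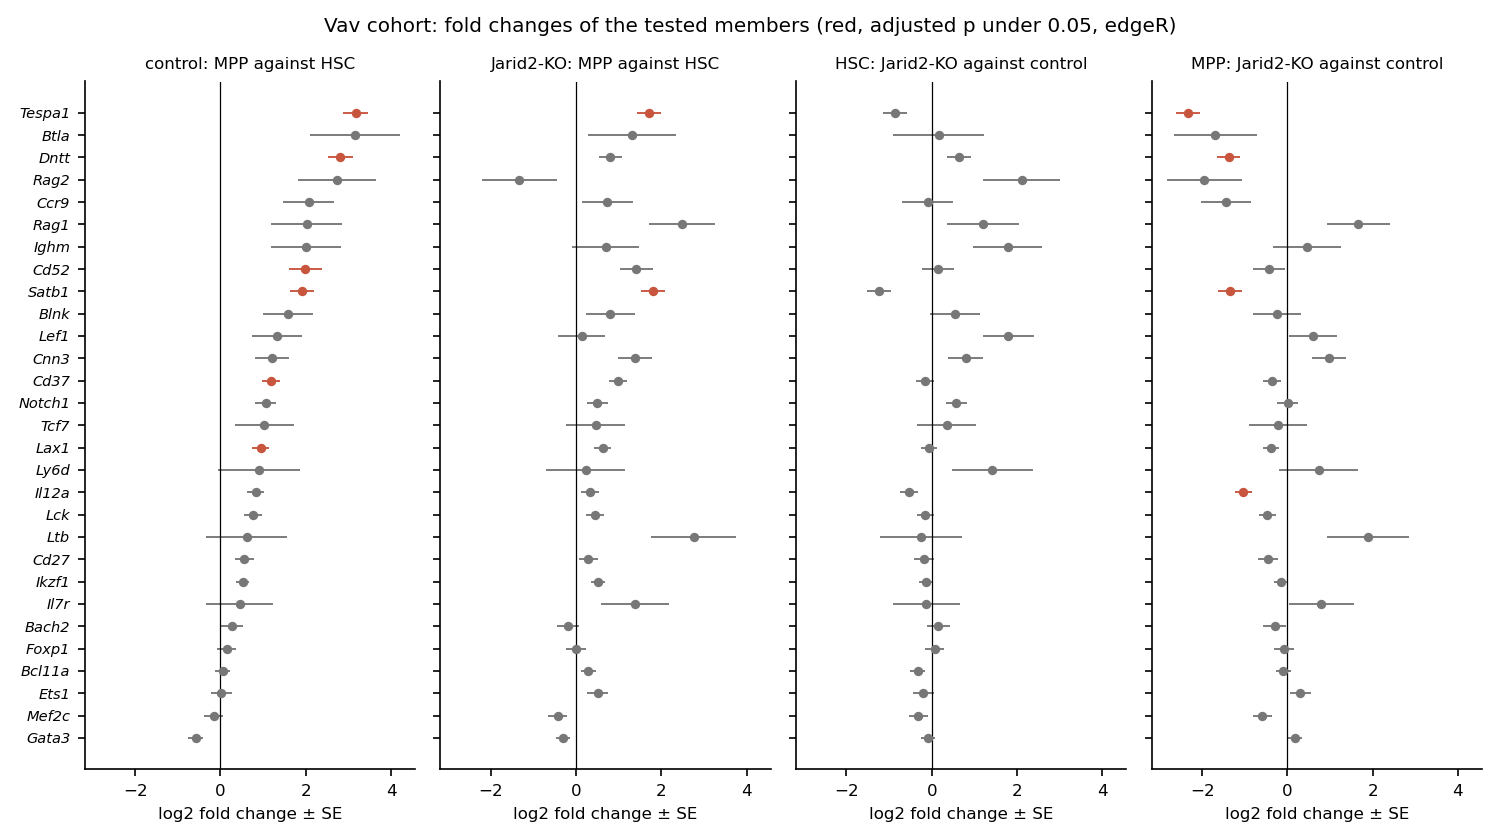
Log2 difference with its SE for the 29 genes tested in the 4 Vav comparisons (MPP against HSC within each genotype, and the genotypes against each other within each cell type); red points passed edgeR's adjusted p of 0.05. Red points lie to the right for 6 genes in control MPP against HSC and for 2 in Jarid2-KO, and to the left for Tespa1, Dntt, Il12a and Satb1 in Jarid2-KO against control MPP.

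Whether the loss of Jarid2 acted differently in MPP and HSC was tested as an interaction. By edgeR no member passed (0% of all genes did), and 3 members and 419 of all genes had an unadjusted p under 0.05. The strongest was Dntt, whose Jarid2-KO difference was 2.01 lower on the log2 scale in MPP than in HSC (-2.01, SE 0.39, unadjusted p = 0.00014, edgeR adjusted p = 0.7043); DESeq2 called it with 0.0444% of all genes, and limma-voom called no gene. Tespa1 followed at -1.46 (SE 0.39, edgeR adjusted p = 0.9999). For Satb1 the interaction was -0.11 (SE 0.39) and for Il12a -0.49 (SE 0.29). The calls in MPP and their absence in HSC are thus not shown to differ, and the comparisons within a cell type share libraries with those between cell types.

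A further 4 lists placed these genes among other parts of the lymphoid pathway. Of 22 genes upstream in early lymphoid specification, 21 were tested in the Vav cohort. Flt3, the receptor that marks lymphoid-primed progenitors, was among those higher in control MPP than HSC (27.3 to 69.3 CPM in HSC and 405 to 580 CPM in MPP, log2 difference 3.33, SE 0.38, edgeR adjusted p = 0.0004194). Flt3 rose in Jarid2-KO as well (3.15, SE 0.38, edgeR adjusted p = 0.001207). None of the 21 passed between genotypes; Flt3 read 133 to 276 CPM in Jarid2-KO MPP (-1.27, SE 0.35, edgeR adjusted p = 0.09326). Lists for later B cell, T cell and NK steps, with 11, 5 and 10 genes tested, held none past the test in any Vav comparison.

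In the Mx1 cohort edgeR called none of the 31 members in any of 9 comparisons, and 0% of the 19616 genes tested. Among the comparisons without the double mutant, the unadjusted p was under 0.05 for 0 members between control MPP and HSC, 1 between Jak2V617F MPP and HSC, 2 between Jak2V617F and control HSC and 2 between Jak2V617F and control MPP, where it was so for 523, 212, 299 and 264 of all genes. Here 24 of 31 members were negative in control MPP against HSC, with a median of -0.61, where the Vav cohort had 27 of 29 positive. DESeq2 called no member in these comparisons either, with 0% to 0.0255% of all genes, nor between double mutant MPP and HSC, with 0.245%. The limma-voom fit called no gene in any of them (0%). Between double mutant MPP and HSC, Dntt (log2 difference 2.90), Ighm (2.74) and Blnk (2.49) had an unadjusted p under 0.05 in edgeR, as did 317 of all genes. Il12a read 63.3 and 65.8 CPM in control HSC and 25.2 and 17.2 CPM in Jak2V617F HSC, and 47.4 and 16.4 CPM in control MPP and 11.0 and 12.0 CPM in Jak2V617F MPP (log2 differences -1.67 and -1.65). With a term for the 6 libraries over 4% heart transcripts these were -1.20 and -0.94, and the MPP value was -0.56 without the first control MPP library and -2.23 without the second.

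The double mutant HSC libraries had the lowest levels of several members. Against control, 23 of 31 members were negative, and 10 had an unadjusted p under 0.05, as did 1249 of the 19616 genes; the median was -1.33, against 0.11 over all genes. Both double mutant libraries lay below both controls for 14 members and above them for 3, against 11.9% and 23.9% of all genes. Against Jak2V617F, 23 were again negative with a median of -1.33, and 10 of the members and 919 of all genes had an unadjusted p under 0.05. There the libraries lay apart for 17 below and 4 above, against 10% and 17.4% of all genes. These 2 comparisons share the double mutant libraries.

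Cd52 read 180 and 202 CPM in the control HSC libraries, 128 and 101 CPM in Jak2V617F HSC and 15.2 and 9.53 CPM in double mutant HSC. The double mutant lay below every other HSC library of the cohort, with a log2 difference of -4.24 from control (SE 0.70) and -3.44 from Jak2V617F (SE 0.67); edgeR's adjusted p was 0.07299 and 0.2017. Tespa1 read 67.1 and 33.0 CPM, 28.6 and 15.2 CPM, and 3.07 and 1.77 CPM in the same order (-4.68 from control, SE 0.97, edgeR adjusted p = 0.0777). Dntt read 122 and 164 CPM, 149 and 52.3 CPM, and 12.5 and 0.775 CPM (-4.60 from control, SE 1.18, edgeR adjusted p = 0.199). That value was -7.85 without the first double mutant HSC library and -3.67 without the second, and -3.95 with the heart-transcript term (edgeR adjusted p = 0.3613).

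Among B lineage members, Ighm and Blnk were also lowest in the double mutant HSC. Ighm read 365 and 1680 CPM in control HSC, 908 and 496 CPM in Jak2V617F HSC and 67.4 and 21.9 CPM in double mutant HSC (-4.70 from control, SE 0.90, edgeR adjusted p = 0.07299). Blnk read 27.2 and 31.7 CPM, 72.1 and 24.5 CPM, and 3.96 and 2.88 CPM (-3.40 from control, SE 0.79, edgeR adjusted p = 0.1204). Gata3 overlapped between control and Jak2V617F and stood higher in the double mutant, at 0.980 and 8.47 CPM, 1.55 and 6.07 CPM, and 43.3 and 63.0 CPM (3.22 from control, SE 1.04, edgeR adjusted p = 0.4066); in the Vav HSC it read 116 to 126 CPM. Leaving out 1 library moved the Gata3 difference from control between 2.51 and 5.35. None of these 6 genes passed edgeR's test. Leaving out 1 library, which leaves 1 in its group, moved the difference of Cd52 from control between -4.69 and -3.83. For Ighm it moved between -5.83 and -3.35.

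**Figure D4:**
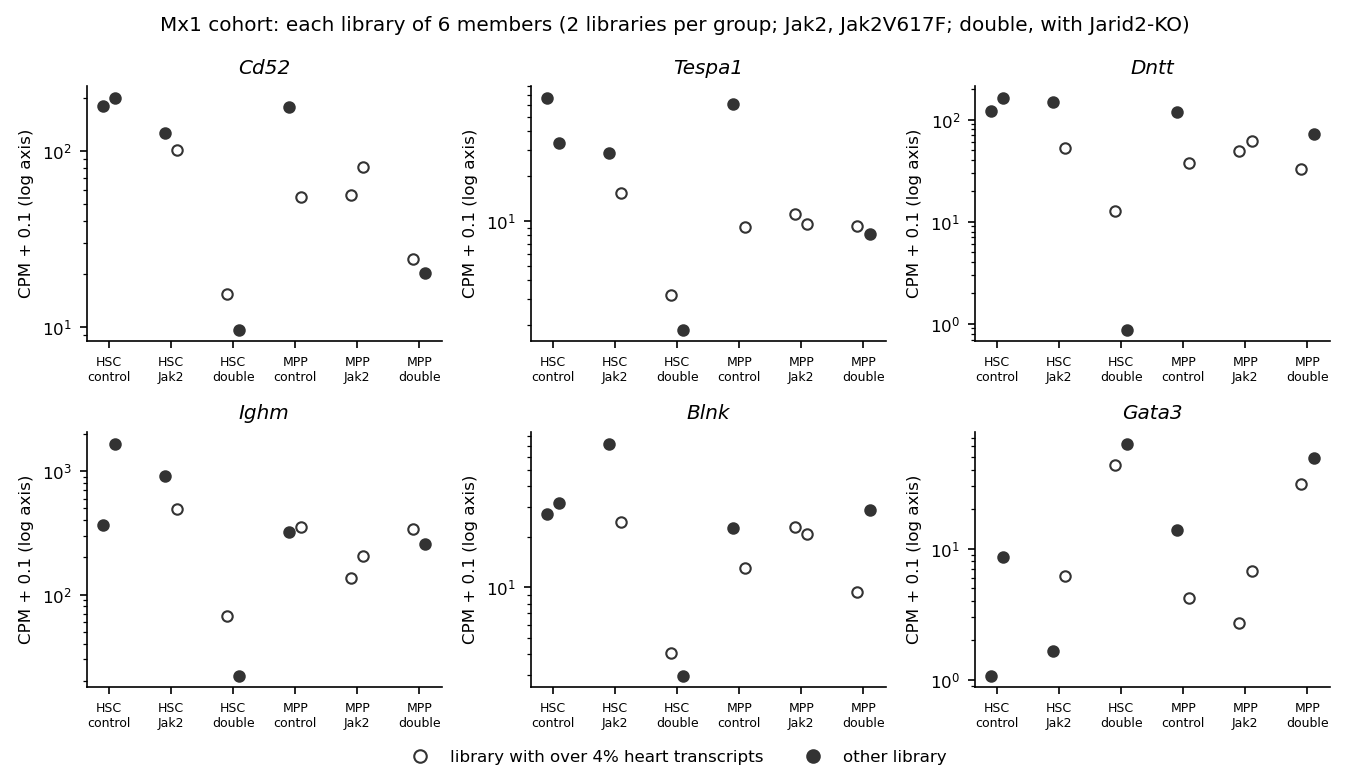
CPM plus 0.1, on a logarithmic axis, of Cd52, Tespa1, Dntt, Ighm, Blnk and Gata3 in each of the 12 Mx1 libraries by group (n = 2); open points are the 6 libraries with over 4% heart-muscle transcripts. In HSC the double mutant points lie below the control and Jak2V617F points for the first 5 genes and above them for Gata3, for open and filled points alike.

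The other tests drew the line differently. For double mutant against control HSC, DESeq2 called 7 members (Gata3 and Ltb higher, Blnk, Cd52, Dntt, Ighm and Tespa1 lower) with 2.76% of all genes, and limma-voom 2 (Cd52 and Ighm) with 0.494%. For double mutant against Jak2V617F HSC, DESeq2 called 7 (Gata3 higher, Blnk, Cd52, Dntt, Ighm, Rag1 and Tespa1 lower) with 2.29% of all genes, and limma-voom none with 0.0255%. With a term in edgeR for the 6 libraries over 4% heart transcripts, 4 members passed against control (Cd52, Blnk and Tespa1 lower, Mef2c higher) with 2.34% of all genes. With that term 6 passed against Jak2V617F (Blnk, Cd52, Cd37 and Ikzf1 lower, Cd27 and Mef2c higher) with 2.75%. Under it Cd52 was -4.03 from control (edgeR adjusted p = 0.005283) and Blnk -2.74 (0.005803), whereas Ighm, at -4.92, did not pass (0.1163).

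The lower lymphoid values ran beside large differences in other markers. Granulocyte-monocyte markers summed to 29260 to 37000 CPM in control HSC, 17060 to 21550 CPM in Jak2V617F HSC and 1338 to 2230 CPM in double mutant HSC. Committed B cell markers summed to 112 to 318 CPM, 174 to 472 CPM and 62.4 to 92.2 CPM, and NK markers to 1019 to 1203 CPM, 538 to 778 CPM and 146 to 175 CPM. HSC markers were highest in the double mutant, as given above. Of the pathway lists, none of whose genes passed edgeR's test here, the 13 B lineage genes had a median of -3.29 from control and -3.88 from Jak2V617F HSC, and the 22 upstream genes 0.13 and 0.23. The part of cell content in the lower Cd52, Tespa1, Dntt, Ighm and Blnk was not tested. The fit with the heart term given above adds 1 shift for the libraries over 4%, the same in every group. Control HSC held no library over 4% and Jak2V617F MPP none under it. Contrasts with these groups thus lean on a shift estimated in the other groups. A fit on the 6 libraries under 4% alone, where the double mutant HSC has 1 library, was not run. Among those 6 Cd52 read 9.53 CPM against 180, 202 and 128 CPM in the control and Jak2V617F libraries, and among those over 4% it read 15.2 against 101 CPM.

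The double mutant was compared in the same way in MPP. Against control MPP, 19 of 31 members were negative with a median of -0.26, and 3 had an unadjusted p under 0.05, as did 924 of all genes; 3 lay wholly below and 6 wholly above, against 7.98% and 14.1% of all genes. Against Jak2V617F MPP, 16 were positive with a median of 0.08, and 3 had an unadjusted p under 0.05, as did 588 of all genes; 5 lay below and 11 above, against 15.4% and 16.9%. Cd52 read 178 and 55.0 CPM in control, 56.0 and 81.7 CPM in Jak2V617F and 24.1 and 20.1 CPM in double mutant MPP (-2.64 from control, SE 0.65, edgeR adjusted p = 0.2909). Leaving out 1 library moved that difference between -3.26 and -1.43. Dntt overlapped across the 3 groups, at 119 and 37.2 CPM, 49.4 and 61.9 CPM, and 32.6 and 72.1 CPM. Against control, DESeq2 called Cd52 with 1.48% of all genes, limma-voom none with 0%, and edgeR with the heart term Cd52 with 1.58%. Against Jak2V617F, DESeq2 called none with 0.646% and limma-voom none with 0.0612%, and edgeR with the heart term called Cd27 higher and Cd37 lower with 0.591% of all genes. Cd27 there read 22.4 and 22.3 CPM in Jak2V617F and 66.6 and 200 CPM in double mutant MPP. In the same order of groups as for Cd52, granulocyte-monocyte markers summed to 9209 to 31610 CPM, 10470 to 13160 CPM and 2816 to 5378 CPM, and NK markers to 317 to 1161 CPM, 337 to 440 CPM and 210 to 231 CPM; their part in the Cd52 values was not tested. The difference between the MPP and HSC effects in this cohort was not tested.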

How the data were processed

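RNA-seq libraries were made with a low-input kit from sorted pools. Reads were summarised by the authors; the submitters' processing notes name the mm10 build, Partek 6.6, HTSeq 0.8.0, featureCounts 1.4.5 of Subread, and STAR 2.0.4, without their roles. The deposited tables hold whole-number read counts per gene, and the deposited CPM and RPKM are computed by the authors from them: both were recomputed from counts and listed lengths within 1e-09. The 2 cohorts' tables list exons differently for 14573 genes, 0 of them with another length, and were fitted apart. Symbols were matched from Ensembl identifiers (40254 of 41388 genes).

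Counts were tested in R 4.3.3 with edgeR 4.0.16 (TMM, robust quasi-likelihood F test, filterByExpr with a minimum count of 10 and total of 15), all groups of a cohort in 1 fit, and Benjamini-Hochberg adjustment over all genes tested at 0.05; SE is the log2 difference over the root of F. DESeq2 1.42.0 and limma 3.58.1 (voom with quality weights) were alternatives. The fit was tested on simulated data. The biological coefficient of variation was 0.337 in the Vav and 0.786 in the Mx1 cohort. Replicates differed by far more than counting noise, so none was a duplicate; the p-values measure the spread between pools. Any member could be named; those past a test are given per library. The members, lists and tests were chosen with earlier results of these data known. Same-numbered libraries were checked for pairing: some pairs deviated together and others apart, so the numbers were not taken to pair them. The series' design text lists Mx1 Jarid2-KO alone where the labels give Jak2V617F. The labels were followed, so the genotype of the groups called Mx1 Jak2V617F rests on the labels. The 8 ChIP samples were not analysed here. Jarid2 itself is not reported, since counts over all its exons do not check a partial deletion. A result on a further marker gene is not reported here.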

Additional observations from a re-analysis of the deposited data

How the results depend on the processing

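Cd2 and Ikzf3 did not pass the filter on low counts in the Vav cohort and were not tested there. The Mx1 fit had 2 libraries a group and a wide spread. Counts of members past the test moved as follows, with the share of all genes called in parentheses; the cause was not tested. For control MPP against HSC, 6 (1.17%) became 12 with DESeq2 (3.33%), 12 with limma-voom (4.65%) and 11 with only the groups compared (2.62%). For Jarid2-KO MPP against HSC, 2 (0.525%) became 5 without the filter (1.73%), 8 with DESeq2 (2.61%), 4 with limma-voom (0.639%) and 0 with only those groups (0.162%). For Jarid2-KO against control, HSC went from 0 (0.569%) to 2 without the filter (2.55%), 2 with DESeq2 (4.95%), 1 with limma-voom (8.97%) and 1 with only those groups (2.02%), and MPP from 4 (0.948%) to 1 with only those groups (0.129%). The interaction went from 0 (0%) to 3 without the filter (0.228%) and 1 with DESeq2 (0.0444%). The Mx1 counts all start from 0 (0%). For double mutant against Jak2V617F, HSC went to 7 without the filter (0.827%), 6 with the heart term (2.75%) and 7 with DESeq2 (2.29%), and MPP to 2 with the heart term (0.591%). For double mutant against control, HSC went to 6 without the filter (1.03%), 4 with the heart term (2.34%), 7 with DESeq2 (2.76%), 2 with limma-voom (0.494%) and 6 with only those groups (2.38%), and MPP to 1 without the filter (0.606%), 1 with the heart term (1.58%) and 1 with DESeq2 (1.48%). The heart term also moved the median of all genes for double mutant against control HSC from 0.11 to -0.19.

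Without a replicate, the Vav counts ran as follows, with the share of all genes called in parentheses. They ran from 3 to 5 for control MPP against HSC (0.376% to 0.623%) and 0 to 4 for Jarid2-KO MPP against HSC (0.218% to 1.07%). For Jarid2-KO against control they ran from 0 to 0 in HSC (0.0849% to 0.281%) and 1 to 6 in MPP (0.207% to 9.03%). For the interaction they ran from 0 to 0 (0%). For Vav control MPP against HSC, 3 members (Dntt, Satb1 and Tespa1) passed without control HSC replicate 2, control MPP replicate 1 or control MPP replicate 2. The shares of all genes were then 0.417%, 0.389% and 0.376%. In the Mx1 cohort, leaving out a library leaves 1 in its group, so log2 differences alone are given. For double mutant against control HSC, the log2 difference ran from -4.69 to -3.83 for Cd52 and from -5.83 to -3.35 for Ighm. Tespa1 in Jak2V617F against control Mx1 MPP turned to 0.15 without control MPP replicate 1 and was -2.74 without control MPP replicate 2.

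No label ties same-numbered libraries to each other, and the correlation of their deviations was mixed. It had a median of -0.0261 over 18 Vav pairs (-0.254 to 0.299, 5 over 0.1, 5 best matched to their own number) and 0.0267 over 30 Mx1 pairs (-0.543 to 0.523, 4 over 0.1, 16 best matched to their own). With 2 libraries a group, the same-numbered pairs of any given Mx1 groups have the same correlation. The Mx1 pairs are thus not independent, and a best match there only restates a positive value. Pairs across genotypes cannot share mice. Within a genotype, same-numbered HSC and MPP libraries correlated at -0.0091 to 0.299 in the Vav cohort. In Mx1 control, Jak2V617F and double mutant these values were 0.0448, -0.0157 and 0.523. With a block by pool, control MPP against HSC had 5 members past the test (1.06% of all genes) and Jarid2-KO MPP against HSC 2 (0.487%). With the replicate block, MPP Jarid2-KO against control went from 4 to 1 (Tespa1; 0.67% of all genes), with edgeR adjusted p of 0.05637 for Dntt and Satb1 and 0.06305 for Il12a, and Lax1 in control MPP against HSC went to 0.0628. With crossed numbers, added after the data were seen, double mutant against Jak2V617F HSC and against control MPP had 0 members past the test. The shares of all genes were 0% and 0.0204%. Over 12 called member results, 164 alternative values kept their direction, of which 37 no longer passed.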
